A study of Mus musculus with 6 samples.

Results

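The 9 genes described here encode 6 STAT transcription factors (Stat2, Stat3, Stat4, Stat5a, Stat5b and Stat6) and 3 Janus kinases (Jak1, Jak2 and Tyk2). They were taken from the 56448 genes of the deposited table by a rule on gene symbols. Earlier results of these data were known when they were chosen. Other genes of these families are not analysed here. Messenger RNA was sequenced from 4T1, an established tumour line that arose in a mouse mammary gland. The libraries were 3 labelled in9 and 3 labelled LV2, in a series on stable lentiviral knockdown of the microRNA miR-9 with a control group. The labels spell out neither name, do not say which of them is the control, and do not say whether a group is 1 clone or a pool of infected cells, so differences are given as in9 minus LV2. Nothing states that replicates were separate cultures, so p-values set a difference against the spread between these libraries, which may be technical.

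Janus kinases sit on the inner tails of cytokine receptors. When a cytokine brings receptor chains together, the kinases phosphorylate each other and the receptor, and STAT proteins dock there, are phosphorylated on a tyrosine, pair and enter the nucleus. Each STAT answers a set of signals: Stat2 type I interferon, Stat3 the interleukin-6 group, Stat5a and Stat5b prolactin and growth hormone, Stat6 interleukin-4 and interleukin-13, and Stat4 interleukin-12. In the mammary gland Stat5a drives milk protein genes, and Stat3 acts in the regression of the gland after weaning. In the authors' deposited table all 6 STAT genes carry the domain names STAT_alpha, STAT_int, STAT_bind and SH2, the last being the domain that docks on phosphorylated tyrosine, and all 3 kinases carry Pkinase_Tyr, the tyrosine kinase domain. The activity of these proteins is set by phosphorylation, which RNA levels do not show.

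Stat2 was higher in in9 than in LV2, Stat3 and Jak2 were next in size of difference without passing the test, and Stat4 was listed at 0 in all 6 libraries. The levels are in TPM, the share of all transcripts that a gene contributes after correction for its length. This unit does not carry the read number, so the depth behind each value is unknown. A gene was tested when its mean reached 1 TPM over the 6 libraries, which 8 of the 9 genes did. It was called at an adjusted p under 0.05 in limma over the 13406 genes tested, of which 0.821% were called higher in in9 and 0.194% lower. Among the 8 tested STAT and Janus kinase genes 1 was called higher and none lower. Counting unadjusted p under 0.05, 4 lay higher and 0 lower, against 13.6% and 5.86% of all tested genes in these directions. All 8 had a positive log2 fold change, as did 63.7% of all tested genes, and their median was 0.17 against 0.06 over all tested genes. In bulk RNA, fewer cells that express a gene and less of its RNA per cell cannot be told apart.

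**Figure D1:**
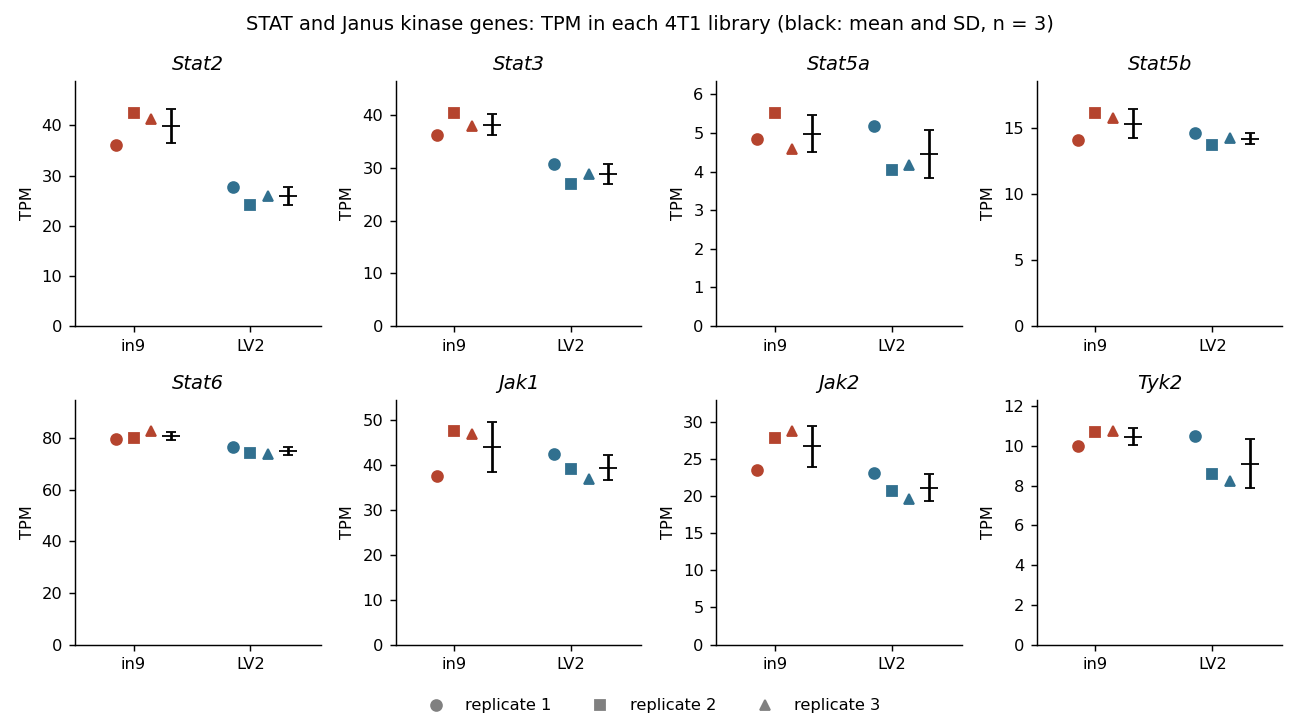
TPM of the 8 tested STAT and Janus kinase genes in each library, in9 left of LV2, with 1 symbol per replicate and the mean ± SD (n = 3) in black; each vertical axis starts at 0. The in9 libraries lie above the LV2 libraries for Stat2, Stat3, Stat6 and Jak2, and the groups overlap for Stat5a, Stat5b, Jak1 and Tyk2.

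Stat2 is the STAT of type I interferon signalling and acts with Irf9 in the complex ISGF3. It had 36.1, 42.5 and 41.2 TPM in the in9 libraries, against 27.8, 24.2 and 25.9 TPM in the LV2 libraries. The lowest in9 library, replicate 1, was above the highest LV2 library. The means were 39.9 ± 3.39 TPM in in9 and 26.0 ± 1.79 TPM in LV2 (SD, n = 3), a linear ratio of 1.54. On the log2(TPM + 1) scale Stat2 rose by 0.60 ± 0.08 (SE) in in9, and limma gave an adjusted p of 0.0453. Without any 1 library other than in9 replicate 1 the adjusted p was between 0.115 and 0.202, and without in9 replicate 1 it was 0.0147. Stat2 was also not called with no minimum level (adjusted p = 0.0803), no intensity trend (0.0732) or a replicate block (0.234) in limma, under which 0.0921%, 0.201% and 0.00746% of the genes tested were called higher. Transcripts of the mitochondrial chromosome took 6.42% to 7.64% of TPM in in9 and 5.90% to 6.01% in LV2, and with these transcripts left out of the total the change of Stat2 was 0.62 with an adjusted p of 0.0424 in limma. Ribosomal protein genes took 12.1%, 10.1% and 10.3% of TPM in in9, against 12.4%, 12.9% and 13.0% in LV2, with in9 replicate 1 nearest to the LV2 libraries. The part of this share in the result was not tested.

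Stat2 lies on chromosome 10 (positions 128270559 to 128292849, plus strand, GENCODE M21 on GRCm38, the assembly also called mm10) and overlaps no other annotated gene. Its promoter is shown because interferon-response genes commonly carry an ISRE, the element that ISGF3 binds, close to their start. The 300 bases of the RefSeq promoter table (GRCm38.p6, chr10:128270248-128270547, plus strand) hold the 250 bases before the annotated RefSeq start and the 50 bases from the start on. Capitals mark the matches to an ISRE core, GAAANNGAAA, and to a Stat6-type site, TTCNNNNGAA, each searched on both strands.

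Stat2 promoter: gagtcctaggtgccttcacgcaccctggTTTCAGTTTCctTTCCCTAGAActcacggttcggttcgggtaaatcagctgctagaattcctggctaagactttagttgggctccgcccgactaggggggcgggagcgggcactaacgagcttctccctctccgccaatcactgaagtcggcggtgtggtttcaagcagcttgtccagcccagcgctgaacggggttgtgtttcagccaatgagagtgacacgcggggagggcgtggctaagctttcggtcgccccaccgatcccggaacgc

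The ISRE match TTTCAGTTTC, which is the core read on the minus strand, starts at -222 and the TTCNNNNGAA match starts at -210, counting the annotated start as 0, and they do not overlap. Of 32851 promoters of this length 3.44% hold the ISRE core, 6.95% hold TTCNNNNGAA and 8.30% hold TTCNNNGAA, the core of the site that most STAT pairs bind. Among the 12 promoters listed for the 9 genes, the other match was an ISRE core 97 bases before the second start of Stat4, a gene listed at 0. The promoters of Stat3, Stat5a, Stat5b, Stat6, Jak1, Jak2 and Tyk2 hold none of these letters in this window. A match describes the sequence and was not tested as a site.

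Stat3 carries the signal of interleukin-6 and its relatives. It had 36.3, 40.4 and 38.0 TPM in the in9 libraries, against 30.7, 26.96 and 28.9 TPM in the LV2 libraries. Every in9 library was above every LV2 library, as for 17.4% of all tested genes. The difference was 0.40 ± 0.07 (SE) on the log2 scale, and its adjusted p in limma, 0.0610, missed the threshold. It passed when genes under a mean of 5 TPM were not tested (adjusted p = 0.0487, where 1.42% of genes were called higher) and without in9 replicate 1 (adjusted p = 0.0303, where 6.77% were). Stat3 was not called in the other 12 settings tried. Without any 1 other library its adjusted p in limma was between 0.123 and 0.241, and with a replicate block it was 0.254.

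Stat6, the STAT of interleukin-4 and interleukin-13, was the most abundant of the 9. It had 79.7, 79.9 and 82.6 TPM in in9, against 76.7, 74.2 and 73.8 TPM in LV2. The groups did not overlap, but the difference was small, with a log2 fold change of 0.11 ± 0.04 (SE), and was not called (adjusted p = 0.242 in limma). After trimmed-mean scaling between libraries its log2 fold change was 0.04.

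Stat5a and Stat5b, close paralogs that both answer prolactin and growth hormone, overlapped between the groups. Stat5b had 14.1, 16.1 and 15.7 TPM in in9, against 14.6, 13.7 and 14.2 TPM in LV2. Its log2 fold change was 0.10, with a 95% interval of -0.08 to 0.28. Stat5a, the less abundant of the pair here, had 4.84, 5.52 and 4.59 TPM in in9, against 5.18, 4.05 and 4.17 TPM in LV2. Its interval ran from -0.17 to 0.44, so neither no difference nor one of the size seen for Stat3 is shown. As paralogs they may share reads, and the way the authors' counting split them is not given in the sources used here. Stat4, which is known from lymphoid cells, was listed at 0 in every in9 and every LV2 library.

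Of the kinases, Jak2 serves among others the receptors of growth hormone and interferon gamma. It had 23.6, 27.9 and 28.8 TPM in in9, against 23.1, 20.7 and 19.7 TPM in LV2. The groups did not overlap, though in9 replicate 1 lay close to LV2 replicate 1. The difference, 0.32 ± 0.10 (SE) on the log2 scale, was not called in limma (adjusted p = 0.158). Without in9 replicate 1 it was 0.41 and was called (adjusted p = 0.0428). Jak2 was not called in the other 13 settings tried, with an adjusted p of up to 0.390 in limma.

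Jak1, which is shared by interferon receptors and the interleukin-6 group, was the most abundant kinase of the 3. It had 37.4, 47.3 and 46.7 TPM in in9, against 42.3, 39.0 and 36.7 TPM in LV2. In9 replicate 1 fell among the LV2 libraries, and the log2 fold change of 0.15 had a 95% interval of -0.10 to 0.40. Tyk2, which sits on the type I interferon and interleukin-12 receptors, had 10.0, 10.7 and 10.7 TPM in in9, against 10.5, 8.59 and 8.22 TPM in LV2. Its groups overlapped through LV2 replicate 1, and the interval was -0.06 to 0.44.

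**Figure D2:**
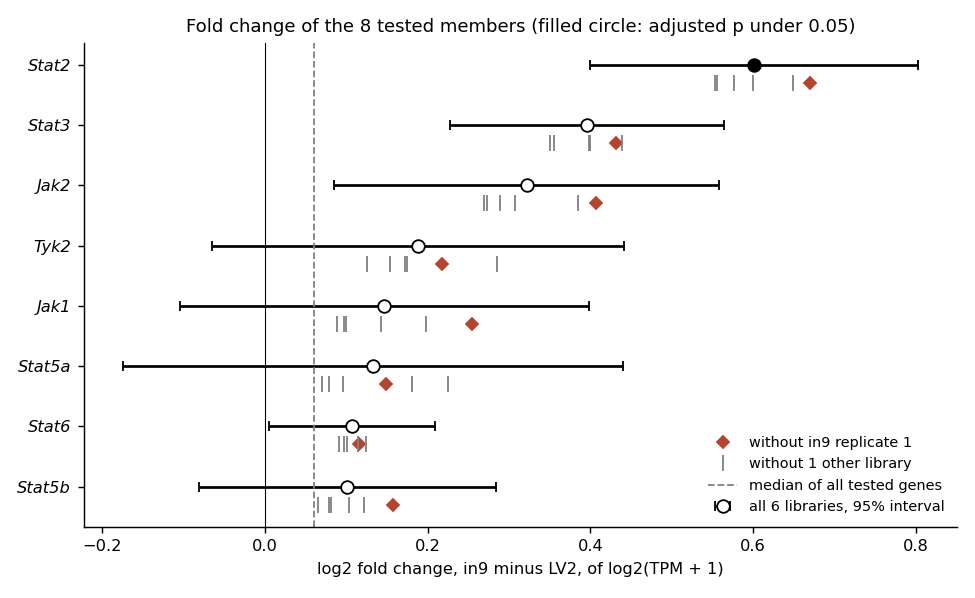
Log2 fold change of log2(TPM + 1), in9 minus LV2, for the 8 tested genes, with the 95% interval from limma (circles, filled where the adjusted p was under 0.05) and, below each, the values with 1 library left out. Stat2 is highest at 0.60 and Stat5b lowest at 0.10; the dashed line is the median of all tested genes, 0.06.

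On the first principal component of all tested genes in9 replicate 1 lay at -2.70, far from the 26.1 and 27.8 of its group, while the LV2 libraries lay between -22.2 and -6.98. For Stat2, Stat3, Stat5b, Stat6, Jak1, Jak2 and Tyk2 it was also the lowest of the in9 libraries. Without it Stat2, Stat3 and Jak2 were called higher in limma, as were 6.77% of all tested genes.

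The order of the levels was nearly the same in both groups. In in9 it ran Stat6, Jak1, Stat2, Stat3, Jak2, Stat5b, Tyk2, Stat5a and Stat4, and the neighbours Jak1 and Stat2, and Stat2 and Stat3, had overlapping ranges. In LV2 Stat3 came before Stat2, with overlapping ranges, and the ranges of all other neighbours were apart. The mean of Stat6 over the 6 libraries was above that of 84.3% of tested genes, that of Jak1 above 71.4% and that of Stat5a above 20.4%. Together the STAT genes summed to 171, 184 and 182 TPM in in9, against 155, 143 and 147 TPM in LV2. Of that sum Stat2 made 22.3% ± 1.02 in in9 and 17.5% ± 0.519 in LV2, and Stat6 45.1% ± 1.67 in in9 and 50.5% ± 1.19 in LV2 (SD, n = 3). The kinases summed to 71.0, 86.0 and 86.2 TPM in in9, against 75.9, 68.3 and 64.6 TPM in LV2, and these ranges overlapped.

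Ratios within a library do not depend on scaling between libraries, and 5 were compared. Stat2 over Stat3 was 0.994, 1.05 and 1.08 in in9, against 0.906, 0.898 and 0.896 in LV2. Stat6 over Stat3 was 2.20, 1.98 and 2.17 in in9, against 2.50, 2.75 and 2.55 in LV2. Jak2 over Jak1 was 0.630, 0.590 and 0.615 in in9, against 0.547, 0.530 and 0.537 in LV2. In these 3 ratios the groups did not overlap, and each had a two-sided exact permutation p of 0.1, the smallest that 3 libraries against 3 allow, and 0.167 adjusted over the 5. Stat5a over Stat5b and Tyk2 over Jak1 overlapped between the groups (exact permutation p = 1 and 0.5). The Tyk2 ratio differed by 0.06 on the log2 scale, which became -0.02 without in9 replicate 1.

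**Figure D3:**
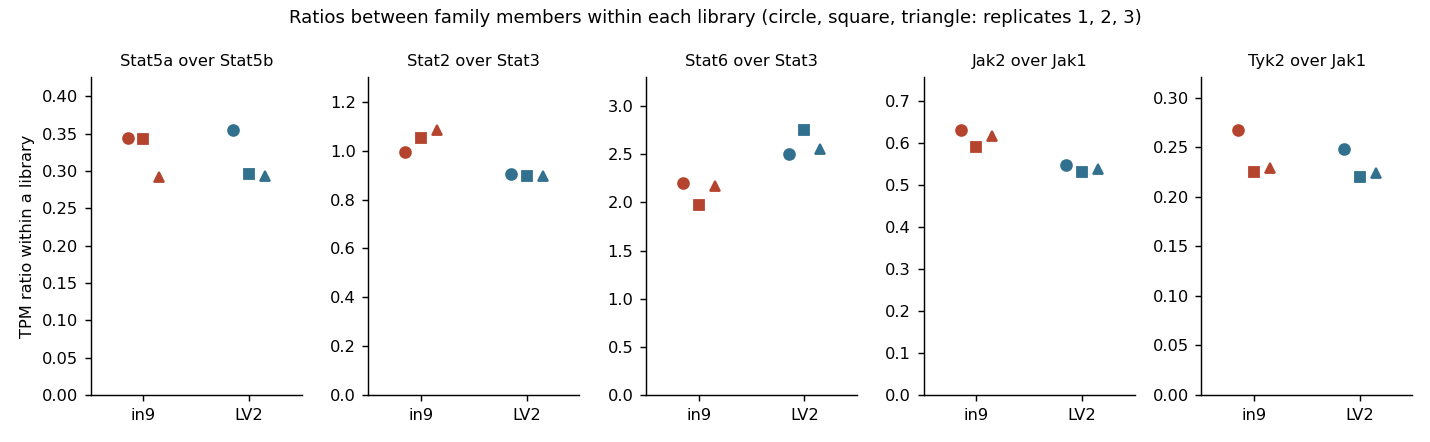
TPM ratio of 2 family members within each library, in9 left of LV2, for the 5 ratios compared; each vertical axis starts at 0 and each symbol is 1 replicate. Stat2 over Stat3 and Jak2 over Jak1 are higher in every in9 library than in any LV2 library, and Stat6 over Stat3 is lower.

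Because the series concerns miR-9, its sequences and their matches in the STAT and Janus kinase transcripts are shown. The table holds no level of mature miR-9, so the extent of its knockdown was not checked. A microRNA pairs through its seed, bases 2 to 8 (capitals), with sites in the 3' UTR of its target and lowers that messenger RNA or its translation. The mature sequences are those of RefSeq for GRCm38.p6, and the 3 mouse genes Mir9-1, Mir9-2 and Mir9-3 on chromosomes 3, 13 and 7 give the same ones.
mmu-miR-9-5p: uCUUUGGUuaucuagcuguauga
mmu-miR-9-3p: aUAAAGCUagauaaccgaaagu

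When the longest 3' UTR that GENCODE M21 gives for a gene was searched, 6 of the 9 genes held 1 match to the miR-9-5p seed, either ACCAAAG (bases 2 to 8) or CCAAAGA (bases 2 to 7 followed by A). Of 10994 tested genes with an annotated 3' UTR 24.96% held at least 1 match. The match in Stat2 was the 8-base form that joins both, which 5.23% of these genes held. The sites follow with their flanks, the matched bases in capitals.
Stat2 site, 3' UTR bases 144 to 151: tttgaaggtgcACCAAAGAgtcagaac
Stat3 site, bases 2856 to 2862: ctggctccagcCCAAAGAattattac
Stat5b site, bases 1918 to 1924: agaaaagggtgCCAAAGAagcgagac
Stat6 site, bases 339 to 345: gagacattgtgCCAAAGAcagagggc
Jak1 site, bases 971 to 977: gagcccttttcCCAAAGAattcaata
Jak2 site, bases 937 to 943: ttggaacatggCCAAAGActgtgtga

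No match was found in Stat4, Stat5a or Tyk2 in the 3' UTR searched. The 3' UTR searched was 1476 bases long for Stat2, 3701 for Stat3 and 2365 for Stat5b, against a median of 1347 over the tested genes. For Stat6, Jak1 and Jak2 it was 976, 1128 and 1232 bases. Both coding isoforms of Stat2 with a 3' UTR held the match, and in Jak2 it was in 2 of 3. In Stat3 it was in 1 of 4, the isoform of 6042 bases. It was not in the isoform of 4516 bases, which is the gene length the authors list. The seed of miR-9-3p had a match in 1 of the 9 genes, Stat4, against 20.2% of the tested genes. The tested genes with an 8-base miR-9-5p match had a median log2 fold change of 0.08, those with a 7-base match 0.08 and those with none 0.05, and their median 3' UTR lengths were 2722, 2428 and 1054.5 bases. Among the 6 STAT and Janus kinase genes with a match, every in9 library was above every LV2 library for Stat2, Stat3, Stat6 and Jak2. The same held for 17.4% of all tested genes. The groups overlapped for Jak1 and Stat5b, and for Tyk2 and Stat5a, which held no match. A link between match and difference was not tested in these genes. Whether any of these sites is used in 4T1 cells was not tested.

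The STAT genes lie in part side by side. On chromosome 11 Stat5b (positions 100780731 to 100850724, minus strand), Stat5a (100859351 to 100885169, plus strand) and Stat3 (100885098 to 100939540, minus strand) follow each other, and the last bases of Stat5a and Stat3 overlap by 72 bases. The sources used here do not say whether strand was used, so reads in the overlap cannot be told apart. Beyond the cluster, the nearest tested coding genes were Ghdc (log2 fold change 0.07) and Cavin1 (0.14), neither of them called in limma. Stat2 and Stat6 are both on chromosome 10. The nearest tested coding genes beside Stat2 were Timeless, at 0.09, and Il23a, which encodes a subunit of the cytokine interleukin-23, at -0.24, and neither was called. Beside Stat6 (127642986 to 127660957, plus strand) the endocytic receptor gene Lrp1, 21837 bases away, was called higher with a log2 fold change of 1.05 (adjusted p = 0.0256 in limma), against 0.11 for Stat6. Its other neighbour Nab2, which overlaps Stat6 by 40 bases, had a log2 fold change of 0.01. These neighbours were named for their position.

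The genes whose pattern over the 6 libraries was most like that of Stat2, by Pearson r of log2(TPM + 1) among 9336 genes with a gene symbol and a mean of at least 5 TPM, included Vwa5a (r = 0.998), the collagen gene Col5a1 (0.998) and the galectin gene Lgals8 (0.998). They are 3 of the 5 highest. The points are 2 groups of 3 libraries, so r follows the difference between the groups in large part. Vwa5a had 18.9, 23.0 and 22.3 TPM in in9, against 14.2, 11.4 and 12.8 TPM in LV2, with no overlap.

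The rest of the pathway is given in the order of the signal. Of 34 ligand genes listed 11 were tested and 10 were listed at 0 in all libraries. Il6, which signals to Stat3, was called higher, with 6.61, 5.92 and 5.24 TPM in in9, against 2.39, 1.91 and 2.42 TPM in LV2. Il6 rose by 1.09 ± 0.14 (SE) on the log2 scale (adjusted p = 0.0351 in limma). Csf3, the gene of granulocyte colony-stimulating factor, was called higher too, with a log2 fold change of 0.29 (adjusted p = 0.0453 in limma), and its receptor gene Csf3r was listed at 0 in all libraries. Tslp, a cytokine of epithelia, had 10.9, 10.5 and 9.96 TPM in in9, against 6.97, 6.84 and 8.31 TPM in LV2, and was not called (adjusted p = 0.0846). The interferon genes Ifnb1 and Ifng, named after their values were seen, were listed at 0 in every in9 library and reached at most 0.34 and 0.12 TPM in LV2. In all, 2 of the 11 ligand genes were called higher and none lower, against 0.821% and 0.194% of all tested genes. An unadjusted p under 0.05 was reached by 5 higher and 1 lower of the 11, against 13.6% and 5.86% of all tested genes. With any 1 library but in9 replicate 1 dropped, limma called 0 ligand genes, and 5 to 7 were higher at an unadjusted p under 0.05. The share of all tested genes at that p with 1 library dropped is not given here.

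No receptor gene was called in limma in any of the 3 receptor lists, which together held 18 tested genes (6, 5 and 7). An unadjusted p under 0.05 was reached by 2, 2 and 3 genes on the higher side and 0 on the lower side. In these directions 13.6% and 5.86% of all tested genes reached it. Of the type I interferon receptor chains, which bind Tyk2 and Jak1, Ifnar1 had 22.9, 23.2 and 23.5 TPM in in9, against 20.6, 17.1 and 18.2 TPM in LV2. Ifnar2 had 42.4, 40.7 and 36.7 TPM in in9, against 32.9, 30.9 and 30.1 TPM in LV2. The groups did not overlap for either chain, and the adjusted p was 0.122 and 0.0816. Il10rb, a chain shared by interleukin-10 and lambda interferon receptors, had a log2 fold change of 0.14, with overlapping groups. In the interleukin-6 group the chain Il6ra had a log2 fold change of 0.42 and Osmr, the oncostatin M receptor, of 0.59, while the shared signalling chain Il6st (gp130) overlapped between the groups at 18.8 to 24.2 TPM in in9 and 18.3 to 22.6 TPM in LV2. Among the other receptors Il4ra and Il13ra1, which signal to Stat6, had log2 fold changes of 0.35 and 0.23, and Il12rb1, an interleukin-12 receptor chain, of 0.82 with 4.34, 7.95 and 6.05 TPM in in9 against 2.79, 3.55 and 2.55 TPM in LV2. Without in9 replicate 1 limma called 1 of the other receptors higher, where 6.77% of all tested genes were. The prolactin receptor gene Prlr reached at most 0.01 TPM, in in9 replicate 3, and was otherwise listed at 0. Ghr, the growth hormone receptor gene, had 32.31, 40.42 and 40.68 TPM in in9, against 36.69, 35.05 and 29.65 TPM in LV2. Its groups overlapped.

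Among 22 tested negative regulators Socs3, which inhibits Jak1, Jak2 and Tyk2 at the receptor, was called higher. It had 31.0, 29.0 and 30.8 TPM in in9, against 22.5, 19.8 and 19.2 TPM in LV2. Of the list 1 was called higher and none lower, against 0.821% and 0.194% of all tested genes, and its median was 0.13. An unadjusted p under 0.05 was reached by 7 higher and 1 lower, against 13.6% and 5.86% of all tested genes. Socs3 was not called when any 1 library but in9 replicate 1 was dropped. Usp18, which acts on Ifnar2 to dampen interferon signalling, had a log2 fold change of 0.47 and the phosphatase gene Ptpn6 of 0.22, and neither was called (adjusted p = 0.0601 and 0.1002 in limma). Of 21 partners and adaptors limma called 0, and the median was 0.08. Here 2 higher genes and 1 lower gene reached an unadjusted p under 0.05, against the same 13.6% and 5.86%. Those with the smallest p were the adaptor gene Stam (0.23), Nmi, whose product binds STAT proteins (0.14), and the GTPase gene Rac1 (-0.09). Without in9 replicate 1 the called counts were 3 higher and 1 lower among the negative regulators and 2 higher among the partners. In that setting 6.77% of all tested genes were called higher and 3.68% lower.

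**Figure D4:**
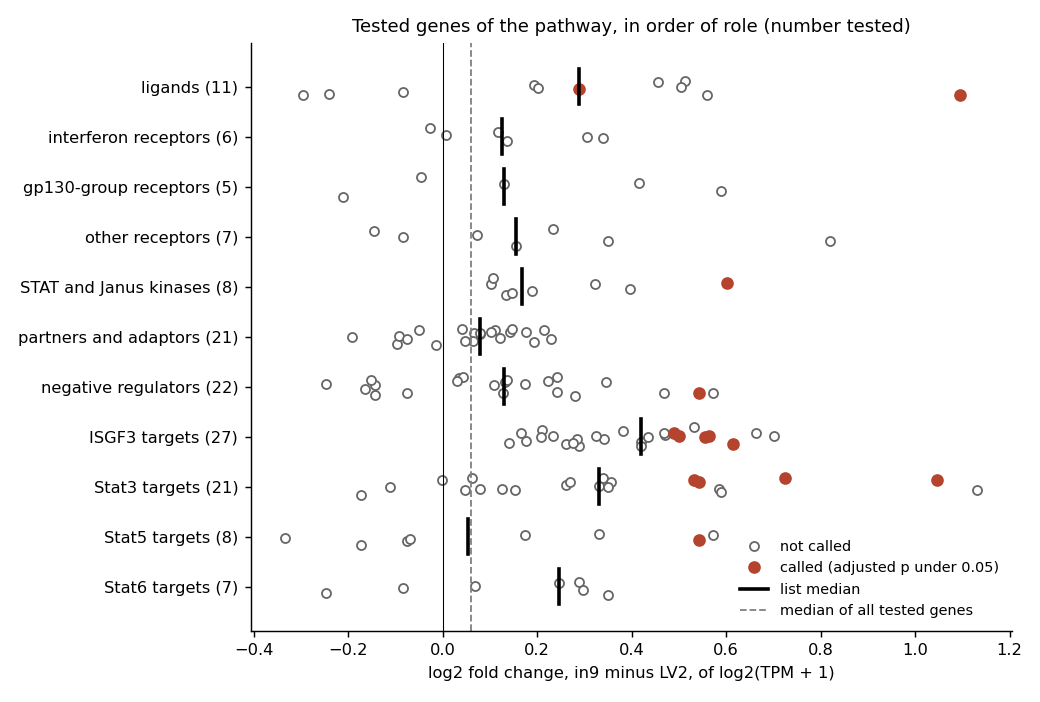
Log2 fold change, in9 minus LV2, of every tested gene of the pathway lists, ordered from ligands to targets, with the number tested in brackets; red points were called, bars are list medians and the dashed line is the median of all tested genes, 0.06. The ISGF3 targets have the highest median, 0.42, and all 27 lie above 0, as do 63.7% of all tested genes.

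Genes known as targets of ISGF3, the complex that Stat2 forms, had positive log2 fold changes throughout. Without Stat2 itself, 27 of 27 were positive, against 63.7% of all tested genes, and the median was 0.42. Of the 27, 5 were called higher and none lower, against 0.821% and 0.194% of all tested genes. In 23 of the 27 every in9 library was above every LV2 library, against 17.4% of all tested genes. The transcription factor gene Irf7 had 156, 160.1 and 149 TPM in in9, against 99.0, 94.2 and 110 TPM in LV2. Ifit1, whose product binds foreign RNA, had 26.1, 27.3 and 29.5 TPM in in9, against 18.7, 17.5 and 19.2 TPM in LV2. The other called genes were Oas2 (log2 fold change 0.49), Ifi44 (0.50) and Cmpk2 (0.56). Irf9, the DNA-binding partner of Stat2, had a log2 fold change of 0.18 and was not called (adjusted p = 0.261 in limma). Leaving out in9 replicate 1 gave 18 calls, where 6.77% of all tested genes were called higher. Leaving out any other 1 library gave 0 in limma, with 19 to 22 genes higher at an unadjusted p under 0.05. No minimum level, no intensity trend and the replicate block also gave 0 calls, with 21 to 23 genes higher at that unadjusted p. The share of all tested genes at that unadjusted p is not given for these settings. With none of these changes it was 13.6%. Trimmed-mean scaling gave 3 calls, where 0.642% of all tested genes were called higher.

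Of 21 tested Stat3 targets other than Stat3 itself, 4 were called higher and none lower, with a median of 0.33. Over all tested genes 0.821% were called higher and 0.194% lower. An unadjusted p under 0.05 was reached by 12 on the higher side and 2 on the lower side, against 13.6% and 5.86% of all tested genes. The 4 called were Lcn2, an iron-binding secreted protein (log2 fold change 1.05), the transcription factor gene Cebpd (0.72), Socs3 (0.54) and the gelatinase gene Mmp9 (0.53). Cebpd had 9.49, 10.5 and 10.7 TPM in in9, against 6.55, 5.42 and 5.48 TPM in LV2, with no overlap. The cell cycle gene Ccnd1 and the survival gene Birc5, on the same list, were lower in each in9 library than in any LV2 library, as were 8.08% of all tested genes, with log2 fold changes of -0.17 and -0.11, and were not called. Birc5 was named after its values were seen. Dropping in9 replicate 1 gave 5 calls, where 6.77% of all tested genes were called higher. Dropping LV2 replicate 3 gave 0 in limma (with 9 higher at an unadjusted p under 0.05), and dropping any of the other 4 libraries gave 1. The share of all tested genes at that p without LV2 replicate 3 is not given here.

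Targets of Stat5a and Stat5b include milk protein genes. Of 16 Stat5 targets 8 were tested, 4 of them positive, against 63.7% of all tested genes, and 4 negative. An unadjusted p under 0.05 was reached by 4 higher and 2 lower, against 13.6% and 5.86% of all tested genes. The 1 called, against 0.821% of all tested genes called higher, was Socs3, which also belongs to the lists above. The kinase gene Pim1 had a log2 fold change of 0.33 and Ccnd1 of -0.17, neither called. Of the milk protein genes, Csn1s1, Csn2 and Lalba were listed at 0 in all libraries, and Csn3 was expressed. Csn3 had 5.6, 4.97 and 6.33 TPM in in9, against 7.11, 6.84 and 8.08 TPM in LV2. Every in9 library was below every LV2 library, and the log2 fold change of -0.33 was not called (adjusted p = 0.196 in limma). Of 16 Stat6 targets 7 were tested and limma called 0. On the higher side 2 and on the lower side 0 had an unadjusted p under 0.05, against 13.6% and 5.86% of all tested genes. Those with the smallest p were Il4ra, the transcription factor gene Klf4 (0.25) and Socs1 (-0.25), a feedback inhibitor that was lower in every in9 library than in any LV2 library.

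Markers of other cells were checked because Stat4 and several receptors are typical of leukocytes. Of 18 leukocyte markers 7 were listed at 0 in all libraries, and Ptprc (CD45) reached at most 0.09 TPM in in9 and 0.12 TPM in LV2. The marker Trac reached 1.59 TPM in in9 and 2.8 TPM in LV2, with overlapping groups. The list summed to 35.8 to 41.2 TPM in in9 and 29.9 to 31.0 TPM in LV2, nearly all of it Cd68, a lysosomal protein gene with 33.6 to 40.6 TPM in in9 and 27.5 to 28.8 TPM in LV2. Fibroblast and endothelial markers summed to 11.6 to 12.4 TPM in in9 and 8.34 to 10.3 TPM in LV2, mostly Pdgfra, and the fibroblast collagen gene Col1a1 reached at most 0.23 TPM. The marker Cdh5 had 1.65 to 1.81 TPM in in9 and 1.46 to 1.62 TPM in LV2. Tie1 had 1.07 to 1.36 TPM in in9 and 1.26 to 1.46 TPM in LV2. Epithelial markers summed to 2313 to 2365 TPM in in9 and 2412 to 2470 TPM in LV2, led by the keratin genes Krt8 and Krt18. Epcam, an epithelial adhesion protein gene, had 38.1, 36.7 and 35.9 TPM in in9, against 47.7, 45.8 and 43.9 TPM in LV2, a log2 fold change of -0.30 that was not called (adjusted p = 0.0633 in limma). The cadherin gene Cdh1 had 129.9, 147 and 147 TPM in in9, against 130.4, 123.2 and 118 TPM in LV2, with overlapping groups and a log2 fold change of 0.19. The part of these cells in the results above was not tested.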

How the data were processed

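The table holds TPM per gene and library as deposited by the authors, with 2 decimals, a mean column per group and a gene length. The build is mm10 per the submitters' processing notes. For the aligner, the quantifier and the annotation the entry is: not given in the sources used here. The design text speaks of a microarray and the extraction protocol of tissue, but the library labels are those of sequencing. Depth is unknown, so no count model, counting interval or detection floor was used. The 95% intervals are those of limma for the difference between the group means. They rest on the spread between libraries, which limma draws toward that of other genes.

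Genes that reached a mean of 1 TPM were tested as log2(TPM + 1), which understates the change of low genes, with limma 3.58.1 (R 4.3.3, intensity trend, two-sided, no replicate block), adjusted by Benjamini-Hochberg over all tested genes. Ratios were compared by an exact permutation test in scipy 1.17.1. The fit was also run on simulated data with known changes and noise drawn separately for each gene and library. Such data hold no shift of 1 library over many genes, so they cannot show the effect of a library like in9 replicate 1. Alternatives were another pseudocount, other minimum levels, quantile normalization, trimmed-mean scaling (which drops 30% of the log ratios and 5% of the mean levels), no trend, a replicate block and leaving out each library; leaving out mitochondrial transcripts was added after the data were seen.

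The genes and lists were chosen with earlier results of these data known. Named genes are the 9 genes, the called genes of each list and the 3 with the smallest p, and the 5 genes most like Stat2; some genes taken by this rule are not reported here. Neighbours, Birc5, Ifnb1, Ifng, Csf3r, Prlr, Ghr, Irf9, the milk protein genes, Ptprc, Col1a1 and Krt18 stand outside it and were named after their values were seen. Promoters and miRNAs came from RefSeq tables and 3' UTRs from GENCODE M21; all 9 genes matched both by symbol or identifier.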

Additional observations from a re-analysis of the deposited data

How the results depend on the processing

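The 8 tested genes kept a positive log2 fold change under each of 14 alternatives (Stat5a under 13, as it fell below a minimum of 5 TPM), and none of them was called lower. Stat2 ranged from 0.54 to 0.67 and was called under 6 of them. Of the 9 genes, 2 were called higher with a minimum of 5 TPM. With no minimum, no intensity trend or the replicate block 0 were called. With 1 library left out 0 to 3 were called higher, the 3 being without in9 replicate 1. Where limma called 0, 2 to 5 were higher at an unadjusted p under 0.05. The share of all tested genes at that p in these settings is not given here. Over all tested genes limma called 24 higher and 6 lower with no minimum, 27 and 4 with no trend, 1 and 1 with the replicate block, 150 and 45 with a minimum of 5 TPM, and 4 to 908 higher and 1 to 494 lower with 1 library left out, the most without in9 replicate 1. The cause was not tested. The log2 difference of the Tyk2 over Jak1 ratio ran from -0.02 to 0.11 with 1 library left out, and was -0.019 without in9 replicate 1; the other 4 ratios kept their direction. Same-numbered libraries did not deviate together (r = -0.10, 0.02 and -0.05). These values cannot show whether same-numbered libraries were prepared together. In the replicate block no ratio changed size, since the block leaves the mean difference as it is. The unknown depth leaves the counting error of the lower genes, Stat5a and Tyk2, unmeasured.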
